A study of Mus musculus with 6 samples.

Results

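The genes described here encode the machinery of G2 and M phase: cyclins and kinases that start mitosis, the kinetochore, the spindle assembly checkpoint, condensin, mitotic kinesins and the cytokinesis apparatus. They were a set of 54 named genes, chosen by symbol among 15634 listed genes with earlier results of these data known. Each symbol matched 1 listed gene. Transcripts of most of these genes accumulate late in the cell cycle and are scarce in cells that have left it. In mammalian cells, cyclin B with Cdk1 drives entry into mitosis, the checkpoint holds the cell in metaphase until kinetochores are attached, and the anaphase-promoting complex (APC/C), a ubiquitin ligase, then triggers the destruction of cyclin B and securin.

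The cells were mouse mesenchymal stem cells (MSCs, adherent stromal cells) from bone marrow, with the genotype WT and the strain C57BL/6J, and bulk RNA was sequenced. The TNF group held 3 libraries of MSCs given TNF-α, an inflammatory cytokine, at 10 ng/mL for 24 h, and the Control group held 3 libraries of unstimulated MSCs. Both groups were kept in the same serum-containing α-MEM medium. The labels do not say whether libraries came from separate cultures or animals, so p-values measure only the spread between these libraries, which may be technical. Library totals ranged from 45629973 to 55149746 counts in TNF and from 54141846 to 77142418 in Control.

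Several facts of the libraries bear on the values below. Reads of 18S ribosomal RNA took 3.25%, 19.4% and 1.11% of the counts of TNF libraries 1, 2 and 3, and 2.65%, 1.13% and 3.55% of those of Control libraries 1, 2 and 3. Mitochondrial mRNA took 4.45% of the counts of Control library 2, against 1.59% to 2.16% in the other libraries. Levels are given in CPM, counts scaled to the size of each library. On the second principal component of log2 CPM, which held 12% of the variance, Control library 2 (29.4) lay apart from the other Control libraries (-16.8 and -17.2), and the TNF libraries were spread over a like range (-25.2 to 25.6). All 14 stromal markers were listed, of which 4 fell and 4 rose, and so were 24 of 25 markers of macrophages and monocytes, cells that can persist in marrow stromal cultures, of which 11 fell and 5 rose. The median log2 fold change was -0.26 over the stromal and -0.44 over the macrophage markers. The 3 stromal markers with the smallest adjusted p all rose. Vcam1, an adhesion molecule, rose by 3.07, Cd44, the hyaluronan receptor, by 1.27 and Pdgfra, a growth factor receptor, by 1.03. The summed stromal markers went the other way, with 13017 to 13831 CPM in TNF and 18890 to 23780 CPM in Control. Of the macrophage markers, Cx3cr1, the fractalkine receptor, fell by 1.95, while Cd74, the invariant chain, rose by 2.92 and Cybb, of the phagocyte oxidase, by 2.26. Of 17 lymphoid, granulocyte and erythroid markers 1 was listed (S100a8, 0.838 CPM in TNF and 0.220 CPM in Control), and of 8 endothelial markers 3, with sums of at most 3.22 CPM in TNF and 5.24 CPM in Control. All 3 (Egfl7, Kdr and Vwf) were called lower, but 1 was without TNF library 1, Control library 1 or Control library 3. The summed macrophage markers reached 2619 to 2737 CPM in TNF and 2756 to 4131 CPM in Control, with the highest value in Control library 2. Csf1r, the receptor of the macrophage growth factor, was chosen after its values were seen, and had 322 CPM in TNF and 251 CPM in Control. Which cells of the cultures carried the mitotic transcripts was not determined, and bulk RNA cannot tell fewer dividing cells from less RNA per cell.

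Of the 54 mitosis and kinetochore genes, 49 fell in TNF and 1, Pttg1, rose, while Bub3, Cenpe, Smc2 and Smc4 were not called. Among all 15547 tested genes, 16.4% were called lower and 16% higher by the same rule (edgeR's quasi-likelihood test, Benjamini-Hochberg adjusted p under 0.05). Of all these calls 49.4% were higher, against 38.5% when scaled by library totals. The median log2 fold change of the 54 genes was -0.83, which is 56.4% of the Control level, against a median of 0.00 over all tested genes (-0.0046). The falls were of like size, with the middle 50% of the log2 fold changes of all 54 genes between -0.95 and -0.63, and only 7 genes, Cdc25b, Cenpf, Spc24, Knl1, Cdc20, Ncaph and Kif11, fell by at least 1 on the log2 scale, a size that 5.79% of all tested genes reached. For all tested genes the middle 50% lay between -0.29 and 0.26. The SD of the log2 fold changes was 0.30 over the 54 genes, against 0.90 over all tested genes. The latter SD takes in extreme values, from -9.26 to 10.07. In either direction 32.4% of all tested genes were called, and 6.6% rose by at least 1. At adjusted p under 0.01, 46 of the 54 genes fell, against 9.87% of all tested genes.

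The 3 TNF values lay below the 3 Control values in 48 of the 54 genes and above them in Pttg1. In all tested genes, the TNF values lay wholly below in 24.7% and wholly above in 24%. The 54 genes together had 679, 714 and 684 CPM in TNF libraries 1, 2 and 3, against 1103, 963 and 1135 CPM in Control libraries 1, 2 and 3. The 3 TNF sums were close to each other, and Control library 2 was the lowest of its group but still above every TNF library. The group means were 692 ± 18.8 CPM in TNF and 1067 ± 91.6 CPM in Control (SD, n = 3 each), a TNF level 64.9% of the Control level. Without Smc4, the most abundant of these genes in CPM, the sums averaged 603 CPM in TNF and 971 CPM in Control, a TNF level 62.1% of the Control level.

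**Figure D1:**
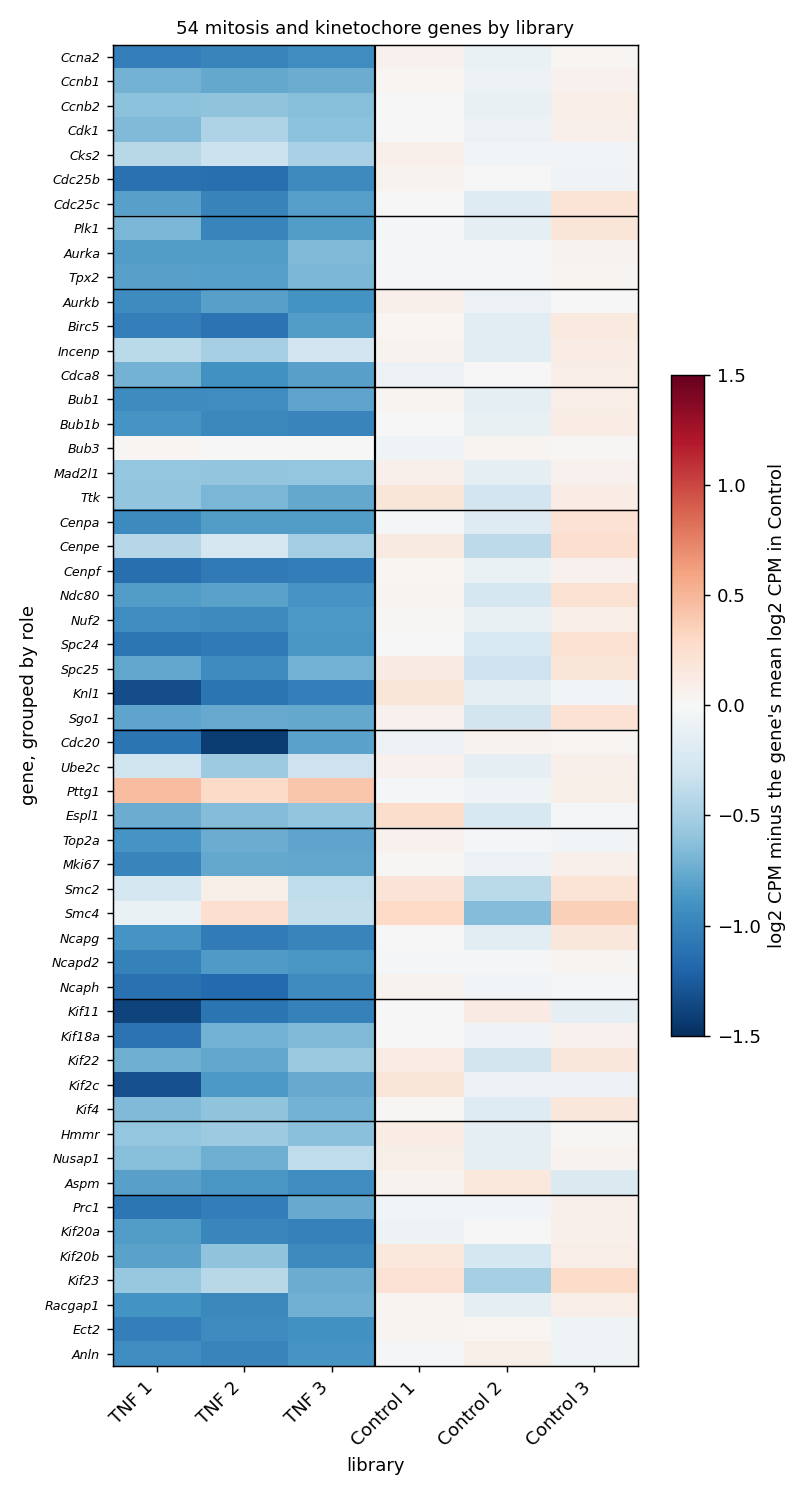
Log2 CPM of each of the 54 genes in each library, less the gene's mean log2 CPM over the 3 Control libraries; rows are genes grouped by role, columns are the 3 TNF and the 3 Control libraries. Most rows are blue in all 3 TNF libraries, Pttg1 is red in all 3, and Control library 2 is the lowest Control library in 40 of the 54 genes.

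The libraries also differed within a group. Control library 2 held the lowest Control value in 40 of the 54 genes, with a median log2 ratio of -0.17 to the mean of the other Control libraries, against -0.01 (-0.0054) over all tested genes. The share of all tested genes with their lowest Control value in Control library 2 was not determined. The largest gaps were in Smc4 (log2 ratio -0.98), Kif23 (-0.74), Smc2 (-0.60) and Cenpe (-0.58). Ratios below -0.5 occurred in these 4 genes (7.41% of the 54) and in 8.54% of all tested genes. The coefficient of variation over the 3 libraries of a group had a median of 6.62% in TNF and 8.18% in Control over the 54 genes, and its highest values were 21.4% for Cdc20 in TNF and 34% for Smc4 in Control.

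**Figure D2:**
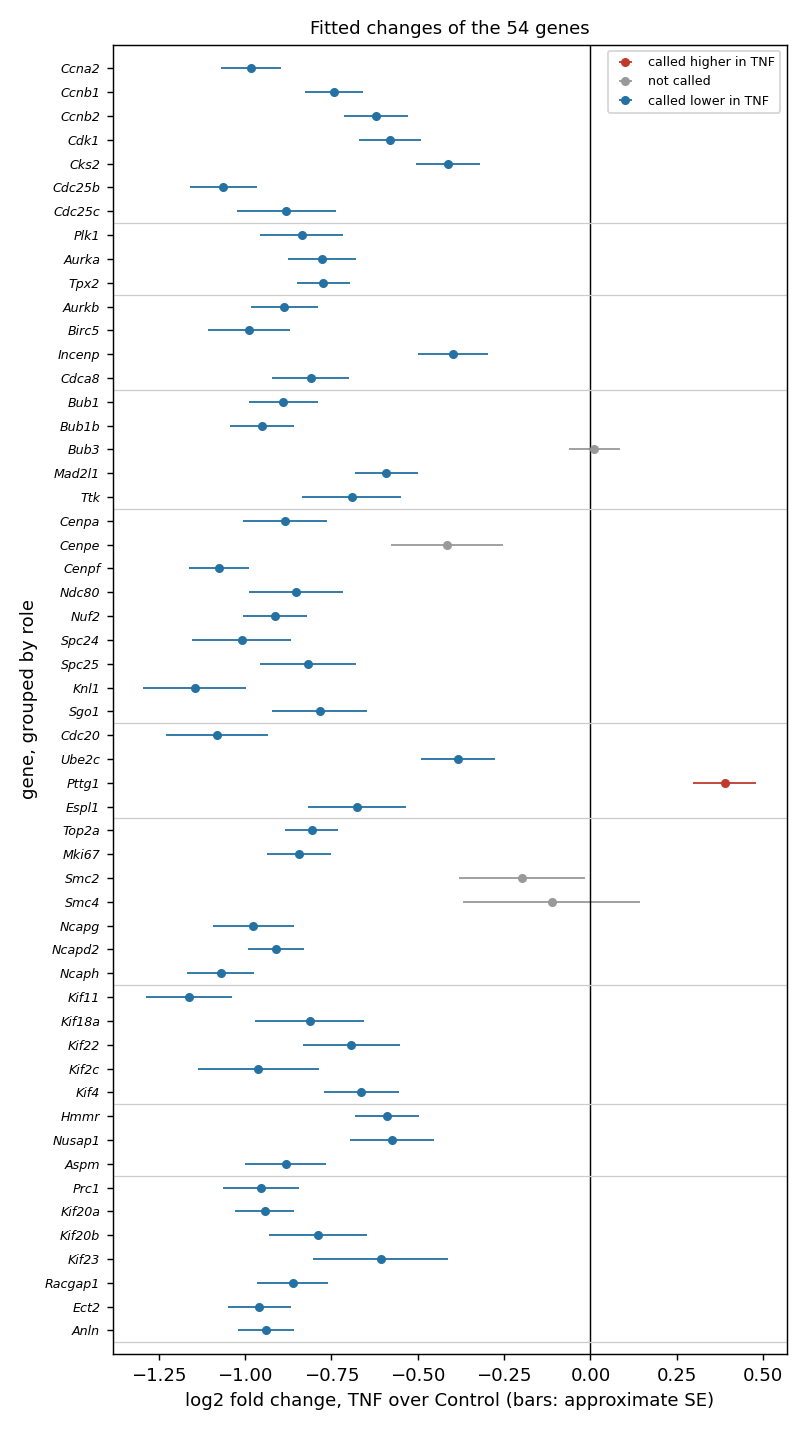
Fitted log2 fold change, TNF over Control, with its approximate SE as a bar, for each of the 54 genes grouped by role. Fitted values run from -1.16 (Kif11) to 0.39 (Pttg1), and the 4 grey genes (Bub3, Cenpe, Smc2, Smc4) were not called.

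Promoters of many G2/M genes carry a cell cycle homology region (CHR), the site through which DREAM and MuvB complexes and, with them, B-Myb and FoxM1 are known to act in human and mouse cells, often next to CCAAT boxes bound by NF-Y. Windows from 250 bases before to 50 bases after the annotated start were read from RefSeq for build GRCm38.p6, by gene symbol, while the authors' files used GRCm39. Of the 54 genes, 46 had a window, 3 of them with 2 windows each. The windows of 4 fallers, chosen because they span the kinetochore, the cyclin kinase, the Polo kinase and the topoisomerase, are shown with that of Pttg1, the gene that rose. Each sequence runs 5′ to 3′ on the gene's strand, and capitals mark TTTGAA (CHR), TTCGAA (a CHR variant) and CCAAT on either strand, so that reverse matches read TTCAAA and ATTGG. Windows not shown include Ncaph and Nuf2, which fell and had none of these motifs. They also include Bub3 and Smc2, which were not called and had both TTTGAA and CCAAT. The windows are chr1:189688037-189688336 (minus strand) for Cenpf, chr10:69352863-69353162 (minus) for Cdk1, chr7:122159185-122159484 (plus) for Plk1, chr11:99024140-99024439 (minus) for Top2a and chr11:43425932-43426231 (minus) for Pttg1, all in GRCm38.p6.
Cenpf: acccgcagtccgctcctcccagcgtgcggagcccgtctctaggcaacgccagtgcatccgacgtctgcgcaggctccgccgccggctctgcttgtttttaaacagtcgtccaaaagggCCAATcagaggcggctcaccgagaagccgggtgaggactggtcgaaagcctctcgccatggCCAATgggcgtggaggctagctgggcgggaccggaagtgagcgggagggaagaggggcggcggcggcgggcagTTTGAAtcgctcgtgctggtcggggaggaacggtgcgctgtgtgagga
Cdk1: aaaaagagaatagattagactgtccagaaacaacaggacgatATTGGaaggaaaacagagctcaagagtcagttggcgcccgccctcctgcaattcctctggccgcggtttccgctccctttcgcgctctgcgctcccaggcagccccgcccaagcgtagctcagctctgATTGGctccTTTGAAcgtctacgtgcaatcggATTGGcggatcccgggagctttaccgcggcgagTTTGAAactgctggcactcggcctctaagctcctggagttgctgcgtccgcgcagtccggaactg
Plk1: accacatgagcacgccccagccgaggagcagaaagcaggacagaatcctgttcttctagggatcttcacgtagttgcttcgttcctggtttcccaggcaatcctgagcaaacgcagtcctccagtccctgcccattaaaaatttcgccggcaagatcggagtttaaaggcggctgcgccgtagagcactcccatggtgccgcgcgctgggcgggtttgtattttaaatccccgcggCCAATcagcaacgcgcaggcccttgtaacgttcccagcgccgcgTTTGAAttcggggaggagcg
Top2a: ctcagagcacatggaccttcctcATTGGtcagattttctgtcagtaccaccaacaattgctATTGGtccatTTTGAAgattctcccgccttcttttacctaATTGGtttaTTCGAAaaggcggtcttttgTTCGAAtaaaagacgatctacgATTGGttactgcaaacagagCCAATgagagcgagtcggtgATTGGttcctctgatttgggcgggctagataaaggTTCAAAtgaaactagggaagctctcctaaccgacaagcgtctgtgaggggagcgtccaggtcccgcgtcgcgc
Pttg1: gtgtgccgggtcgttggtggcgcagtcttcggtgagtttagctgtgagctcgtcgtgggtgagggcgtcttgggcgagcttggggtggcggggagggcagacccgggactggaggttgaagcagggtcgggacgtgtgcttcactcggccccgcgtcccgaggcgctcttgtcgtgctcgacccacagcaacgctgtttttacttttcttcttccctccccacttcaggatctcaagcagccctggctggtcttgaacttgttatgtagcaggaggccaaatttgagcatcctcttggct

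TTTGAA stood in 36 of the 49 windows of mitosis and kinetochore genes (73.5%), against 17.9% of all 32851 RefSeq windows of the same length. Counted by gene, it stood in 33 of 46 (71.7%). CCAAT stood in 37 of the 49 windows (75.5%), against 37.4% of all windows, and TTCGAA in 5 (10.2%), against 1.56%. In 34 of the 49 windows (69.4%) a CCAAT came together with TTTGAA or TTCGAA, against 7.52% of all windows. The TTTGAA matches clustered at the start site: 34 of 46 matches (73.9%) began within 50 bases of it, against 25.3% of the 6737 matches in all windows. The 2 windows of Ect2, of Prc1 and of Bub3 overlap, so their sites were counted once per window. In 2 cases matches shared a base: a TTTGAA with a CCAAT in Cdca8, and a pair of CCAAT on opposite strands in Ube2c.

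Over all genes, TTTGAA was found in the windows of 17% of all matched genes that fell, 13.8% of those that rose and 14.3% of those not called. The 1915 matched genes that fell include 42 of the mitosis and kinetochore genes, of which 31 held TTTGAA, so the 17% counts these again. Of the 46 mitosis and kinetochore genes with a window, 7 had none of the motifs: Birc5, Kif18a, Mad2l1, Ncaph, Nuf2, Nusap1 and Pttg1. The first 6 of these fell and Pttg1 rose, and Bub3 and Smc2, which were not called, had both TTTGAA and CCAAT. Of 36 S phase and replication genes with a window, 4 held TTTGAA (11.1%) and 20 held CCAAT (55.6%). TTTGAA was in the windows of 14 of 34 other spindle and cytokinesis genes (41.2%), 5 of 12 cohesin and condensin genes (41.7%), 7 of 18 G2/M regulators (38.9%), 10 of 30 other kinetochore genes (33.3%), 5 of 18 other mitotic kinases and phosphatases (27.8%) and 3 of 19 APC/C genes (15.8%), against 14.5% of the listed genes outside the 54. A match describes these letters and does not show that a factor is bound.

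**Figure D3:**
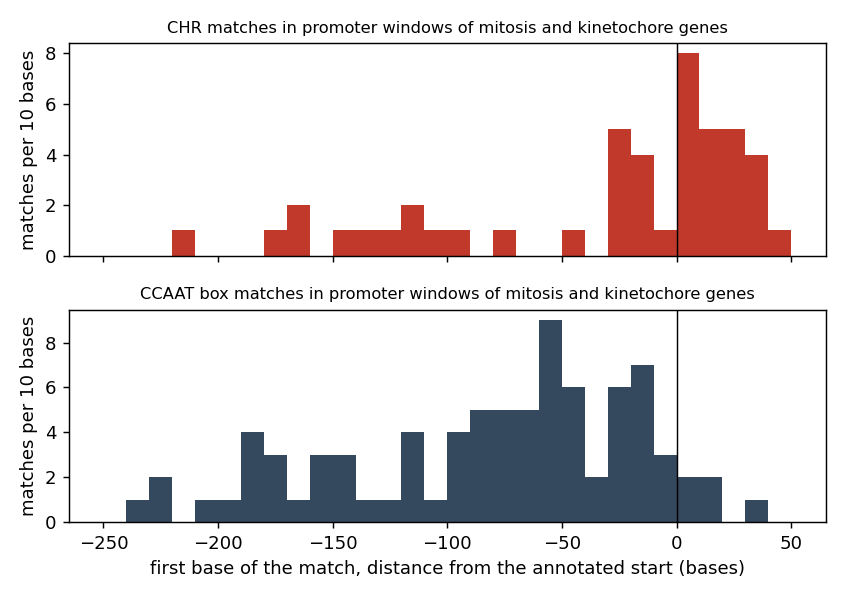
Position of CHR and CCAAT box matches in 49 promoter windows of mitosis and kinetochore genes, in bases from the annotated start (0; negative values lie upstream), counted in bins of 10 bases. CHR matches pile up around the start (34 of 46 within 50 bases), while CCAAT matches have a median position 67 bases upstream (-67). Sites in overlapping windows of a gene are counted once per window.

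The 7 genes of the cyclin and CDK switch fell, with a median log2 fold change of -0.74. Ccna2, the cyclin A of S and G2 phase, had 13.9, 14.2 and 14.8 CPM in TNF libraries 1, 2 and 3, against 29.5, 26.3 and 28.9 CPM in Control libraries 1, 2 and 3. The groups did not overlap, and the log2 fold change was -0.98 ± 0.09 (SE) on the log2 scale (edgeR adjusted p = 4.8e-05). Cdk1, the kinase that drives entry into mitosis, had 19.9, 23.0 and 20.6 CPM in TNF, against 31.8, 29.8 and 33.4 CPM in Control, a smaller fall of 0.58 on the log2 scale (edgeR adjusted p = 0.00131). Cdc25b, a phosphatase that activates Cdk1, had 4.70, 4.65 and 5.25 CPM in TNF and 10.6, 10.1 and 9.84 CPM in Control, with a log2 fold change of -1.06 (edgeR adjusted p = 6.42e-05). Cks2, a small subunit that binds Cdk1, fell least of these 7, with 7.26, 7.74 and 6.92 CPM in TNF and 10.2, 9.46 and 9.46 CPM in Control (log2 fold change -0.41, edgeR adjusted p = 0.00952). The cyclins B, Ccnb1 and Ccnb2, which partner Cdk1 in mitosis, fell by 0.74 and 0.62 on the log2 scale, and Cdc25c, a paralogue of Cdc25b, by 0.88.

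The mitotic kinases fell alike. Plk1, the Polo kinase of centrosomes and kinetochores, had 7.54, 6.13 and 6.82 CPM in TNF, against 11.9, 11.02 and 13.8 CPM in Control. Tpx2, the spindle protein that activates Aurora A, had 25.6, 25.5 and 27.9 CPM in TNF, against 44.2, 44.5 and 46.5 CPM in Control. Neither pair of groups overlapped, and the log2 fold changes were -0.84 ± 0.12 for Plk1 and -0.77 ± 0.08 (SE) for Tpx2 (edgeR adjusted p = 0.000877 and 0.000101). Aurka, which encodes Aurora A itself, fell by 0.78 on the same scale (SE 0.10).

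The chromosomal passenger complex, which corrects wrong attachments of kinetochores, is made of Aurora B, survivin, INCENP and borealin, and all 4 of its genes fell. Birc5 (survivin) had 6.33, 5.95 and 7.20 CPM in TNF, against 13.2, 11.4 and 14.2 CPM in Control, a log2 fold change of -0.99 (edgeR adjusted p = 0.000306). Incenp, the scaffold, fell least, with 22.6, 21.1 and 24.5 CPM in TNF and 31.1, 26.6 and 32.3 CPM in Control (log2 fold change -0.40, edgeR adjusted p = 0.0168). Its call was lost without TNF library 1, TNF library 2, Control library 1 or Control library 3 (adjusted p up to 0.0667). Aurkb (Aurora B) fell by 0.89 and Cdca8 (borealin) by 0.81 on the log2 scale. On the length-corrected TPM scale, the ratio of Aurkb to Incenp was 0.395, 0.451 and 0.388 in TNF libraries 1, 2 and 3, against 0.569, 0.587 and 0.527 in Control libraries 1, 2 and 3. The ratio was lower in every TNF library than in any Control library. This restates the larger fall of Aurkb, and the difference between these genes was not tested.

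Of the spindle assembly checkpoint genes, 4 of 5 fell and Bub3 was not called. Bub1b, which encodes the checkpoint kinase-like protein BubR1, had 9.19, 8.71 and 8.54 CPM in TNF, against 17.0, 15.8 and 18.4 CPM in Control (log2 fold change -0.95, edgeR adjusted p = 9.17e-05). Bub3, the WD-repeat protein that carries Bub1 and BubR1 to kinetochores, had 57.5, 56.8 and 56.7 CPM in TNF and 54.1, 58.4 and 57.2 CPM in Control. Its groups overlapped and its log2 fold change was 0.01 ± 0.07 (SE, edgeR adjusted p = 0.916), with a sign that turned when scaled by library totals (-0.0695). The ratio of Bub3 to Bub1 on the TPM scale was 13.8, 14.2 and 12.5 in TNF, against 6.66, 7.89 and 6.53 in Control. This restates the fall of Bub1 beside Bub3, and the difference between these genes was not tested. Bub1, the kinase that recruits the checkpoint proteins, fell by 0.89, Ttk, the kinase Mps1, by 0.69 and Mad2l1, the Cdc20 inhibitor Mad2, by 0.59 on the log2 scale of CPM.

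Mad2l1 and Espl1 gave other results on the length-corrected TPM scale. In CPM, Mad2l1 was steady in TNF with 12.2, 12.1 and 12.2 CPM, against 19.3, 16.6 and 19.1 CPM in Control. The authors' TPM values were 6.13, 2.30 and 2.65 in TNF, against 4.52, 3.37 and 5.19 in Control, with TNF library 1 far above the other TNF libraries, and limma on log2(TPM + 1) did not call the gene (adjusted p = 0.530) or Espl1 (0.798). By that fit 9.45% of all genes were called higher, and 9.4% with limma on log2(TPM + 0.1), against 0 of the 54 genes in both. The counts behind 1 TPM differed by up to 2.26-fold between libraries for Mad2l1, 3.51-fold for Espl1, 1.83-fold for Smc2 and 1.51-fold for Knl1, after scaling each library. Such shifts above 1.5-fold occurred in 4 of the 54 genes (7.41%) and in 7.07% of all tested genes with reads in every library.

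Of the 9 kinetochore and centromere genes, 8 fell, with a median log2 fold change of -0.88. Cenpf, a large protein of the outer kinetochore, had the smallest adjusted p of the 54 genes. It had 9.49, 9.96 and 10.1 CPM in TNF, against 21.2, 19.4 and 21.6 CPM in Control, which gave a log2 fold change of -1.07 ± 0.09 (SE, edgeR adjusted p = 3.11e-05). Cenpa, the histone H3 variant that marks centromeres, had 6.07, 6.59 and 6.56 CPM in TNF and 11.6, 10.3 and 13.6 CPM in Control (log2 fold change -0.88, edgeR adjusted p = 0.000671). Its groups did not overlap. Knl1, the scaffold on which Bub1 is recruited, fell by 1.15 on the log2 scale and had the lowest TPM of all 54 genes in both groups, 0.448 in TNF and 1.36 in Control. Sgo1, the shugoshin that protects centromeric cohesion, fell by 0.78.

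The 4 subunits of the NDC80 complex, which binds microtubules, fell by similar amounts: Spc24 by 1.01, Nuf2 by 0.91, Ndc80 by 0.85 and Spc25 by 0.82 on the log2 scale. Spc25 had 11.6, 10.4 and 12.3 CPM in TNF, against 21.7, 16.2 and 22.7 CPM in Control. All 3 TNF libraries were below Control library 2, the lowest Control library (edgeR adjusted p = 0.00225). In TPM, the highest subunit, Spc25, exceeded the lowest, Ndc80, by 4.06 times in TNF and 3.97 times in Control. The same subunits were highest and lowest in each group.

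Cenpe, a kinesin that moves chromosomes along the spindle, was the kinetochore gene that was not called. It had 17.8, 20.1 and 16.8 CPM in TNF and 26.2, 18.3 and 28.5 CPM in Control. Control library 2 lay among the TNF values, and the fitted change was -0.42 ± 0.16 (SE, edgeR adjusted p = 0.0818). Without Control library 2 the change was -0.59 and the gene was called (edgeR adjusted p = 0.00245), and DESeq2 (adjusted p = 0.0482) and scaling by library totals (0.0328) called it with all libraries. It was not called when any other single library was left out (edgeR adjusted p from 0.0963 to 0.23). Nor was it called with a block for replicate number (edgeR adjusted p = 0.165) or by limma-voom (adjusted p = 0.109).

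The genes that end metaphase went different ways. Cdc20, the activator of the APC/C, had 6.71, 5.31 and 8.20 CPM in TNF, against 13.4, 14.9 and 14.6 CPM in Control, a log2 fold change of -1.08 (edgeR adjusted p = 0.000667). Pttg1, which encodes securin, the inhibitor of separase, had 19.0, 16.8 and 18.3 CPM in TNF and 13.5, 13.2 and 14.7 CPM in Control. Every TNF library was above every Control library, and the log2 fold change was 0.39 ± 0.09 (SE, edgeR adjusted p = 0.0114), a TNF level 131% (130.9) of the Control level. Its call was lost without TNF library 1 (adjusted p = 0.0546), without Control library 1 (0.0545), with scaling by library totals (0.144) and with limma on log2(TPM + 1) (0.187), while its direction was the same in each of these.

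Espl1, which encodes separase, the protease that cuts cohesin, fell by 0.68 on the log2 scale of CPM (edgeR adjusted p = 0.00662). Ube2c, the ubiquitin-conjugating enzyme of the APC/C, had 15.5, 13.1 and 15.4 CPM in TNF and 20.0, 17.2 and 20.2 CPM in Control. Its groups did not overlap, and its log2 fold change of -0.38 was the smallest among the called fallers (edgeR adjusted p = 0.0244). This call was lost without TNF library 1, TNF library 2, Control library 1 or Control library 3 (adjusted p up to 0.0879). Among 20 further APC/C subunits and regulators, 3 fell and 1 rose, with a median log2 fold change of -0.12. Fbxo5 (Emi1, an APC/C inhibitor) fell by 0.92 and Anapc11, the RING subunit, by 0.49. Trip13, the ATPase that takes Mad2 complexes apart, rose by 0.71 ± 0.11 (SE), with 6.45, 6.64 and 5.79 CPM in TNF and 3.53, 4.10 and 3.87 CPM in Control (edgeR adjusted p = 0.0016).

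**Figure D4:**
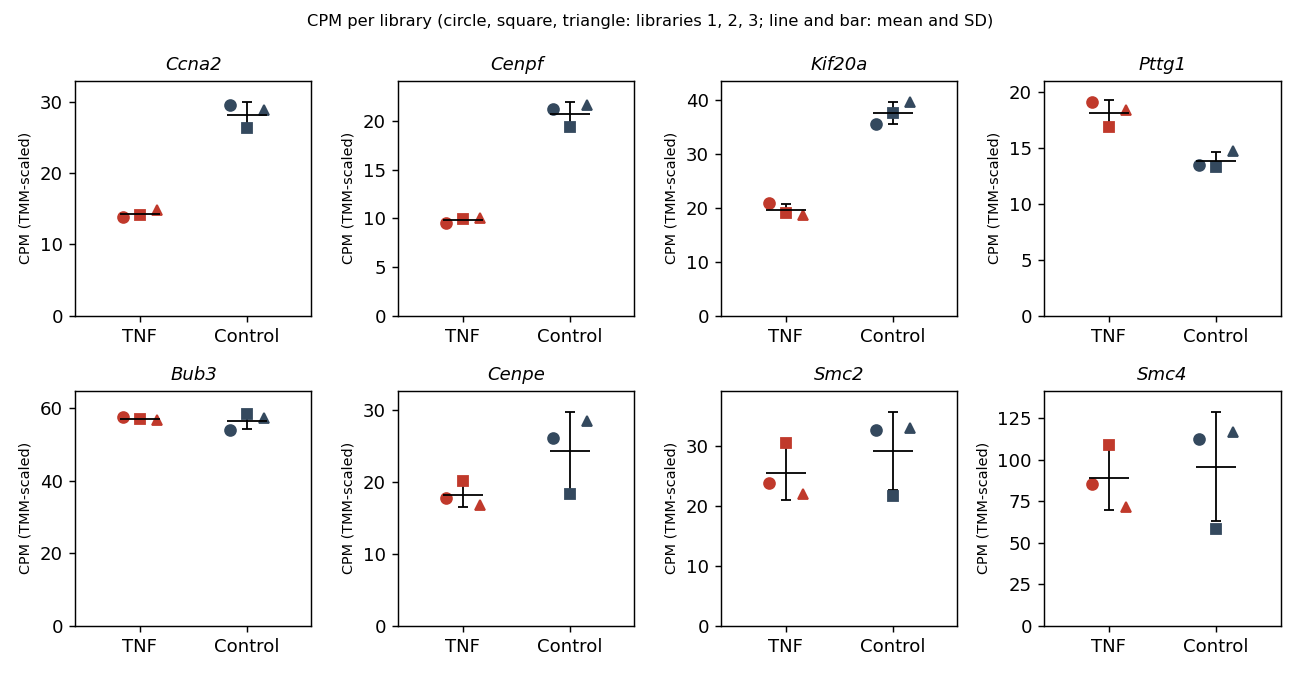
CPM of 8 genes in each of the 3 TNF and 3 Control libraries (circle, square and triangle for libraries 1, 2 and 3), with the group mean as a line and the SD as a bar. Ccna2, Cenpf and Kif20a are lower in every TNF library, Pttg1 is higher, the groups of Bub3 overlap, and Cenpe, Smc2 and Smc4 have a low value in Control library 2.

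Among genes of chromosome structure, the non-SMC subunits of condensin I were called lower and its SMC core was not called. The difference between them was not tested. The non-SMC subunits of condensin I fell: Ncapd2 had 16.6, 18.5 and 18.2 CPM in TNF, against 32.9, 32.8 and 34.4 CPM in Control (edgeR adjusted p = 5.82e-05). Ncaph had 5.87, 5.69 and 6.66 CPM in TNF, against 13.3, 12.4 (12.45) and 12.6 CPM in Control (edgeR adjusted p = 6.21e-05). Their log2 fold changes were -0.91 and -1.07, and that of Ncapg was -0.98.

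Smc4, one of the ATPases that form the condensin ring, had 85.6, 109 and 71.7 CPM in TNF and 113, 58.4 and 117 CPM in Control. The groups overlapped, and the log2 fold change was -0.11 ± 0.26 (SE, edgeR adjusted p = 0.764). Smc2, its partner, had 23.8, 30.5 and 22.02 CPM in TNF and 32.7, 21.7 and 33.1 CPM in Control (log2 fold change -0.20 ± 0.18, edgeR adjusted p = 0.435). For either gene TNF library 2 was the highest TNF library and Control library 2 the lowest Control library. Within each group the order of the libraries was that of their 18S share, and this was so in 7 of the 54 genes (13%) and in 7.83% of all tested genes. Control library 2 also had the largest share of mitochondrial mRNA, 4.45% of its counts. The part of 18S reads or of mitochondrial mRNA in these values was not tested. Without Control library 2 and TNF library 2 together, a setting chosen after seeing the data, Smc4 had a log2 fold change of -0.54 (edgeR adjusted p = 0.00182) and Smc2 of -0.51 (0.00129). Omitting the highest TNF and the lowest Control library of a gene lowers its fold change by construction. Neither gene was called without Control library 2 alone (edgeR adjusted p = 0.111 for Smc4 and 0.0675 for Smc2) or without TNF library 2 alone (0.491 and 0.215). The mean TPM of Smc2 and Smc4 over that of the 3 other subunits was 5.01, 7.25 and 3.96 in TNF libraries 1, 2 and 3, against 3.40, 1.73 and 3.51 in Control libraries 1, 2 and 3. Smc2 had 17.4, 6.41 and 18.2 TPM in Control libraries 1, 2 and 3, a wider spread than in CPM. Its counts behind 1 TPM differed by up to 1.83-fold between libraries, and the part of this in the ratio was not tested.

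The other genes of chromosome structure fell. Top2a, the topoisomerase that untangles sister chromatids, had 28.7, 31.4 and 30.5 CPM in TNF, against 55.3, 52.1 and 51.1 CPM in Control (log2 fold change -0.81 ± 0.08 SE, edgeR adjusted p = 8.01e-05). Mki67, the proliferation marker Ki-67 that coats mitotic chromosomes, fell by 0.84 (edgeR adjusted p = 0.000186). Among 17 cohesin genes, cohesin regulators and further condensin genes, 4 fell and none rose in the fit, with a median of -0.11. Esco2, an acetyltransferase of cohesin in S phase, fell by 1.55 and Cdca5 (sororin), which stabilises cohesin, by 0.94. The 5 core cohesin genes of the list were not called, with Smc3 at 74.0 CPM in TNF and 72.9 CPM in Control (log2 fold change 0.02), and Ncapg2, of condensin II, fell by 0.65.

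All 5 kinesins of the spindle and chromosomes fell, with a median log2 fold change of -0.81. Kif11, the motor that pushes spindle poles apart, fell most of the 54 genes, to 5.41, 6.64 and 7.06 CPM in TNF, against 14.3, 15.5 and 13.0 CPM in Control (log2 fold change -1.16 ± 0.12 SE, edgeR adjusted p = 0.000155). Kif4, a chromosome-bound motor, had 13.1, 13.6 and 12.6 CPM in TNF, against 20.9, 18.1 and 23.3 CPM in Control, and fell by 0.66. Kif22, another motor on chromosome arms, had 5.15, 4.98 and 5.81 CPM in TNF, against 9.24, 7.03 and 9.58 CPM in Control, and fell by 0.69. Kif2c, which depolymerises microtubules at kinetochores, and Kif18a, which dampens chromosome movements, were among the least abundant, with 76 counts of Kif18a in TNF library 1 as the lowest count of any of the 54 genes in any library, and fell by 0.96 and 0.81.

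The spindle-associated genes Hmmr, Nusap1 and Aspm fell. Hmmr, which anchors spindle poles, had 11.1, 11.4 and 10.8 CPM in TNF, against 17.99, 15.2 and 16.9 CPM in Control (log2 fold change -0.59, edgeR adjusted p = 0.00149). Nusap1, a microtubule bundler, had 5.63, 5.29 and 6.75 CPM in TNF and 9.32, 7.99 and 9.07 CPM in Control, without overlap (log2 fold change -0.57, edgeR adjusted p = 0.00727). Aspm, the spindle pole protein whose loss causes microcephaly in humans, fell by 0.88.

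All 7 genes of the central spindle and cytokinesis fell, with a median of -0.94, the lowest among the roles. Anln (anillin), the scaffold of the contractile ring, had 20.0, 19.3 and 20.7 CPM in TNF, against 37.5, 40.8 and 36.7 CPM in Control (log2 fold change -0.94 ± 0.08 SE, edgeR adjusted p = 4.66e-05). Kif20a, a motor of the midzone that carries Aurora B, had 20.9, 19.0 (19.05) and 18.6 CPM in TNF, against 35.5, 37.5 and 39.5 CPM in Control (log2 fold change -0.94, edgeR adjusted p = 6.28e-05). Racgap1, a subunit of centralspindlin, had 19.1, 18.2 and 21.6 (21.55) CPM in TNF, against 36.7, 32.2 and 38.2 CPM in Control, and fell by 0.86. Ect2, which Racgap1 recruits to the midzone, and Prc1, which bundles midzone microtubules, fell by 0.96 and 0.95, and the kinesin Kif20b by 0.79.

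Kif23, the kinesin partner of Racgap1, had the smallest fall of this role. It had 13.0, 14.4 and 11.4 CPM in TNF and 22.3, 13.6 and 23.2 CPM in Control, where Control library 2 fell within the TNF range. Its log2 fold change was -0.61 ± 0.20 (SE, edgeR adjusted p = 0.0434), and it was not called when any library other than Control library 2 was left out (adjusted p up to 0.128), nor by limma-voom (0.0672).

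Compared per length, in TPM, Cdk1 was the most abundant of the 54 transcripts in Control (70.1 ± 7.75) and Pttg1 in TNF (54.1 ± 7.87; SD, n = 3 each). In TNF, Pttg1 was followed by Bub3 (46.5 ± 3.14), Cdk1 (43.4 ± 1.26), Smc4 (38.0 ± 6.29) and Ube2c (30.6 ± 5.15 TPM), and each of these neighbours differed by no more than the sum of their SDs. In Control, Cdk1 was followed by Bub3 (47.9 ± 2.88), Pttg1 (43.8 ± 4.56), Smc4 (42.8 ± 17.2) and Ube2c (41.9 ± 6.48 TPM), of which only Cdk1 stood clear of the next. TPM values depend on the share of 18S reads, which was largest in TNF library 2.

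Other genes of the mitotic programme, taken from lists of further members of these complexes, fell less uniformly. Of 34 other kinetochore and centromere genes 21 fell and 1 rose, with a median log2 fold change of -0.57. Kntc1 (Rod), which delivers dynein to kinetochores, fell by 1.0017, Sgo2a by 1.12 and Cenpu by 1.17. Zwint, an outer kinetochore protein, was the one that rose, with 155, 162 and 134 CPM in TNF and 116, 91.7 and 116 CPM in Control (log2 fold change 0.48, edgeR adjusted p = 0.0143). Its call was lost without TNF library 1 (adjusted p = 0.0627) and when scaled by library totals (0.0844).

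Among 41 other spindle and cytokinesis genes 28 fell and 1, Ndel1, rose (0.38), with a median of -0.55. Kif15, a motor that assists Kif11, fell by 1.40, Haus4, of the augmin complex, by 0.88 and Ckap2 by 0.77. Ndel1, a dynein regulator, lost its call when TNF library 1 or 2 or Control library 1 or 2 was left out (adjusted p up to 0.107). Of 24 other mitotic kinases and phosphatases 10 fell and 2 rose, with a median of -0.25. Pbk fell by 1.24 and Mastl (Greatwall), which restrains the phosphatase PP2A-B55, by 0.76, while Nek6, a kinase of the spindle, rose by 0.56 ± 0.07 (SE, edgeR adjusted p = 0.00056, but 0.0626 by limma on log2(TPM + 1)) and Cdc14a by 0.53. The call of Cdc14a was lost without TNF library 1 or 2 or Control library 1 or 2 (adjusted p up to 0.101).

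Of 23 regulators of G2/M and cell cycle transcription 8 fell and 2 rose, with a median of -0.19. Foxm1, the forkhead factor that activates many mitotic genes, had 20.2, 20.3 and 21.1 (21.05) CPM in TNF, against 28.4, 27.6 and 32.8 CPM in Control, a fall of 0.53 on the log2 scale (edgeR adjusted p = 0.00244). E2f7, an atypical E2F that represses E2F targets, fell by 1.65, to 1.63, 1.56 and 1.83 CPM in TNF, against 5.49, 4.90 and 5.45 CPM in Control (edgeR adjusted p = 2.61e-05). Mybl2 (B-Myb), which binds MuvB, fell by 0.88 and Tfdp2, a partner of E2F factors, by 0.62. The MuvB core genes Lin9, Lin37, Lin52, Lin54 and Rbbp4 and the NF-Y genes Nfya, Nfyb and Nfyc were not called, with log2 fold changes between -0.28 and 0.14. E2f3 (0.37) and E2f4 (0.37) rose, with calls that leaving out single libraries removed: TNF library 1 or 3 for E2f3 (adjusted p up to 0.0908) and any of TNF 1, 2 and 3 and Control 1 and 2 for E2f4 (up to 0.154).

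The neighbouring phases of the cell cycle were measured in the same libraries. Of 46 S phase and replication genes 37 fell and none rose in the fit, with a median log2 fold change of -0.62, against -0.83 for the mitosis and kinetochore genes. The difference between these lists was not tested. Rrm2, a ribonucleotide reductase subunit, fell by 1.41, Tk1, a thymidine kinase, by 1.12 and Pole, a replicative polymerase subunit, by 1.06 (not called by limma on log2(TPM + 1), adjusted p = 0.0748). Of 7 G1 genes none fell and Cdk6 (0.77) and Myc (0.47, adjusted p = 0.078 when scaled by library totals) rose, while the D cyclins Ccnd1, Ccnd2 and Ccnd3 and Cdk4 were not called. Among CDK inhibitors Cdkn1a (p21) rose, with 637, 634 and 525 CPM in TNF and 432 (432.5), 355 and 443 CPM in Control (log2 fold change 0.55, edgeR adjusted p = 0.0122, and 0.0610 without TNF library 1). Cdkn1c (p57) fell by 1.64, Cdkn2c (p18) by 1.30 and Cdkn1b (p27) by 0.79.

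**Figure D5:**
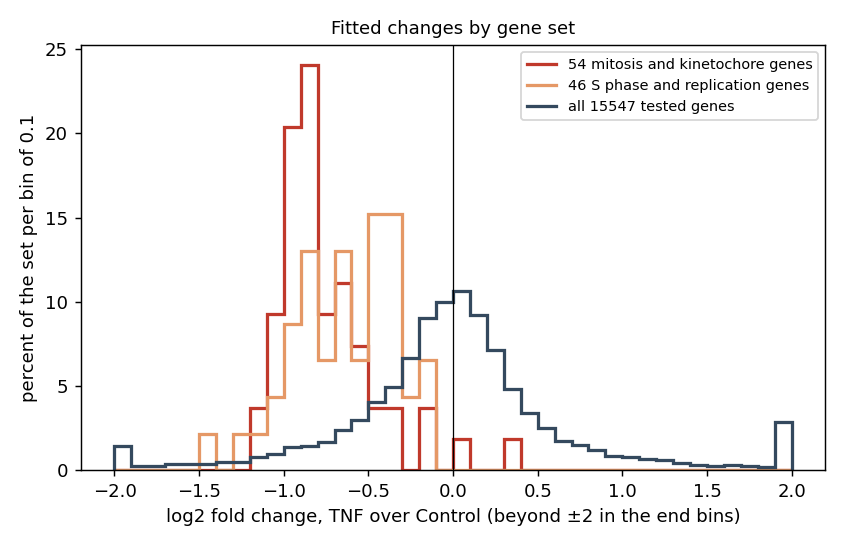
Share of each gene set per bin of 0.1 in fitted log2 fold change, TNF over Control, for the 54 mitosis and kinetochore genes, 46 S phase and replication genes and all 15547 tested genes, with values beyond the axis placed in the end bins. The mitosis and kinetochore genes centre at -0.83, the S phase genes at -0.62 and all tested genes near 0.

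Exons of other genes overlapped 16 of the 54 genes in GENCODE vM21, and 11 of them had an overlapping gene that was listed in the files. The longest shared stretches were 977 bases between Kif20a and Cdc23, 699 between Ncapg and Lcorl, 683 between Kif4 and Pdzd11 and 670 between Prc1 and Rccd1, all on opposite strands. The kit marks strand, but the sources used here do not say whether counting used it, so reads in these stretches may belong to either gene. Cdc23, an APC/C subunit, was not called (53.3 CPM in TNF and 58.6 CPM in Control, log2 fold change -0.14), while Kif20a fell by 0.94.

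Of the 50 calls, 46 held in all 6 repeats without 1 library, and the other 4 were Incenp, Ube2c, Pttg1 and Kif23. The summed macrophage markers were 2619, 2737 and 2727 CPM in TNF libraries 1, 2 and 3. In Control libraries 1, 2 and 3 they were 2809, 4131 and 2756 CPM, so only Control library 2 lay far above the TNF values. The summed stromal markers were 13622, 13831 and 13017 CPM in TNF, against 19125, 23780 and 18890 CPM in Control. The part of cell makeup in the fall of the mitotic genes was not tested.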

How the data were processed

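Total RNA from 6 MSC samples, 3 TNF and 3 Control, was measured. Per the labels, libraries were made with a stranded SMART-Seq kit. The submitters' processing notes name Trim Galore, STAR, StringTie, Salmon and build GRCm39, with roles, settings and strand use not given in the sources used here. The authors deposited expected counts per gene as whole numbers; the title line calls them normalized and the column name raw, and totals differ between libraries, so they were used as counts. The authors also deposited TPM with gene symbols. Count and TPM lines were paired by position: 260 zeros of one fell on the 260 zeros of the other, and the median SD of log2(count/TPM) over libraries was 0.0275, against 0.413 with lines moved by 1. All 15634 listed genes had at least 10 counts in at least 3 libraries, so lower genes were not analysed here.

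The test was edgeR's quasi-likelihood test (version 4.0.16, R 4.3.3; filterByExpr, TMM factors, glmQLFit, glmQLFTest, group only, two-sided, Benjamini-Hochberg over 15547 tested genes). All 54 mitosis and kinetochore genes passed the filter. CPM values use TMM factors, and the SE is the absolute log2 fold change over the square root of F, which is approximate. The 3 motifs were searched by exact match on each strand. The fit was tested on simulated counts. Alternatives were RLE factors, library totals, other filters, DESeq2 1.42.0, limma 3.58.1 with voom or on log2(TPM + 1) or log2(TPM + 0.1), adjusted p under 0.01, a block for replicate number, and repeats with 1 library omitted. A fit without both libraries numbered 2, and library totals without 18S reads, were added after seeing the data.

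The 54 genes and the lists were chosen with earlier results of these data known. Values per library are given for the 8 genes with the smallest adjusted p, every gene not called or called higher, and the 2 of each role with the highest mean TPM; of each list, up to 3 called genes with the smallest adjusted p and up to 3 that went against the majority. Other named genes were chosen after their values were seen.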

Additional observations from a re-analysis of the deposited data

How the results depend on the processing

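The count of lower mitosis and kinetochore genes lay between 44 and 52 under every setting run, with 44 by limma on log2(TPM + 1) or log2(TPM + 0.1), 50 by DESeq2, 46 at adjusted p under 0.01 and 46 to 50 without 1 library. Of all tested genes, 14% and 13.8% were called lower by limma on these TPM scales and 17.5% by DESeq2. The share was 9.87% at adjusted p under 0.01 and 11.1% to 15.2% without 1 library. The count of higher ones, 1 (Pttg1), was 0 with library totals, with limma on TPM and at adjusted p under 0.01, and 0 to 1 without 1 library. Of all tested genes, 10.4% were called higher with library totals and 9.45% and 9.4% with limma on TPM. The share was 10.2% at adjusted p under 0.01 and 11% to 15.4% without 1 library. Of 968 alternative values of single genes, 919 were on the same side of the threshold with the same sign, 35 lost a call, 6 gained one and 8 changed sign. The sign changes were in genes that were not called: Bub3 had -0.0695 with library totals, -0.0036 with genes of at least 5 CPM and -0.0444 and -0.0452 with limma on log2(TPM + 1) and log2(TPM + 0.1). Without 1 library, Bub3 ranged from -0.0203 to 0.0354 and Smc4 from -0.371 to 0.0627. The median log2 fold change was -0.91 with library totals, -0.88 without Control library 2 and TNF library 2, -0.75 and -0.90 with limma on TPM, and between -0.90 and -0.76 without 1 library. With limma on either TPM scale only 1 gene of APC/C activation and separation fell, against 3, and with genes of at least 5 CPM only 3 kinesins were tested and fell, against 5.

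Over all genes, 2550 were called lower and 2489 higher; adjusted p under 0.01 left 1534 and 1587, and the higher count was 1612 with library totals (38.5% of calls higher, against 49.4%) and 1477 and 1470 with limma on TPM. With library totals without 18S reads, 2224 were called higher and 2505 lower (47% higher), and the median log2 fold change of all tested genes was -0.0031, against -0.0866 with library totals that include them. The cause of the other shifts was not tested. Same-numbered libraries deviated from their group means with correlations of -0.01, -0.30 and -0.22 (-0.0125, -0.304, -0.222). Those of differently numbered libraries ran from -0.23 to 0.356. With 3 libraries per group, these values cannot show whether the replicate numbers paired the libraries, and the labels do not say. With the replicate block 48 mitosis and kinetochore genes fell and 1 rose, Kif23 losing its call (adjusted p = 0.106), and 1993 and 1987 of all genes were called lower and higher. Depth limits the genes of lowest count most, of which Kif18a, with 76 counts in a library, was the lowest.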
